A study of Homo sapiens with 4 samples.

Results

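The centromeric windows of chromosome 7 (57 to 63 Mb, hg38) and chromosome 12 (33 to 38 Mb) held 897 of the 21300 ChIP-seq peaks called in the series. They were chosen by position, as all peaks whose summit lay in either window. Of these, 784 came from the list of 15993 TGF-β1 peaks and 113 from the list of 5307 control peaks. The chromosome 7 window held 448 TGF-β1 and 64 control peaks, and the chromosome 12 window 336 TGF-β1 and 49 control peaks.

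The cells are human, carry the label HSC and are described there as stem cells and progenitors. They were grown in medium with fetal bovine and human serum. Treated cells received 20 ng/mL of TGF-β1 (transforming growth factor β1, a secreted signalling protein) for 2 h. Treated and control cells each gave 1 immunoprecipitated (ChIP) library and 1 input library of chromatin without immunoprecipitation. The treatment label of all 4 libraries also names GDF11, a related factor, at 100 ng/mL, without saying which cells received it. No antibody is named in the labels, so the protein or mark behind the peaks is unknown here, and peak lists give no marker levels by which the cell type could be checked. Each group was 1 library, and every difference below is between 2 libraries.

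Centromeres are the parts of chromosomes on which the kinetochore forms and to which spindle fibres attach. In humans they are built of alpha satellite, a short DNA unit repeated in tandem over very long arrays, where blocks of units recur nearly unchanged. The hg38 assembly fills these arrays with modelled sequence, and short reads from them can align to many near-identical places. ChIP-seq peaks in such DNA therefore give a position in the model and cannot be assigned with certainty to 1 copy of a repeat. The DNA under the peaks was not analysed here.

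After duplicates were removed, 45984282 ChIP tags were left with TGF-β1 and 36280696 in the control, a ratio of 1.27. The inputs held 46802425 and 66537905, so the TGF-β1 input was scaled by 0.983 and the control input by 0.545 before comparison. The caller determined a tag size of 43 bp for the TGF-β1 library and 60 bp for the control library, with fragment lengths of 136 bp and 148 bp. The lengths of single tags were not checked. Shorter tags carry less sequence by which copies of a repeat can be told apart, and the part of tag length in the results below was not tested. The genome-wide background was 2.32 tags with TGF-β1 and 1.99 in the control.

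For each peak the authors' caller gives the pileup, which counts the ChIP tags that cover the summit once each tag is lengthened to a whole fragment, and the fold enrichment, which is pileup over local background with 1 added to each. A small q, or a high −log10 q, marks a pileup unlikely under that background. Intervals are 95% intervals of shares and of ratios of counts, unless said otherwise, and cover counting error only.

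Peaks were concentrated in a long stretch without genes in each window. Chromosome 7 has no RefSeq gene from 57868450 to 60991901 (3.12 Mb), and this stretch held 96.2% of the TGF-β1 peaks of the window (431 of 448, 95% interval 94.0% to 97.6%) and 96.9% of the control peaks (62 of 64, 89.3% to 99.1%). Chromosome 12 has none from 34250266 to 37575342 (3.33 Mb), which held 99.4% of TGF-β1 peaks (334 of 336, 97.9% to 99.8%) and 95.9% of control peaks (47 of 49, 86.3% to 98.9%). The label of a centromere could be checked only in this way, since no table of satellite positions was used here.

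Few peaks touched a gene. The windows hold 48 RefSeq genes on chromosome 7 and 13 on chromosome 12, of which 37 and 8 are pseudogenes and 2 in each window code for protein. ZNF479 and ZNF716, 2 zinc finger genes on chromosome 7, held no summit of either list. The closest TGF-β1 summit to ZNF479 was 85.5 kb away and the closest control summit 459 kb. For ZNF716 the distances were 195 kb (TGF-β1) and 126 kb (control). On chromosome 12, SYT10, a synaptotagmin gene (33374238 to 33439819), held 1 TGF-β1 peak (33404394 to 33404661) with a pileup of 18 and a fold of 3.21, with the closest control summit 236 kb away. ALG10, which encodes a glucosyltransferase of N-glycan assembly, held none, with the nearest summits 582 kb (TGF-β1) and 222 kb (control) away. The other summits in genes were of the control list. One lay in the non-coding gene LOC102723842 (57865817 to 57866038, fold 3.05) and one in the pseudogene AK6P1 on chromosome 12. None of the 13 promoters that RefSeq lists in the windows lay under a peak.

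In each window TGF-β1 peaks began and ended abruptly. Counted in bins of 100 kb, the longest run of bins with at least 5 TGF-β1 peaks covered 2.7 Mb on chromosome 7 (58100000 to 60799999) and 2.4 Mb on chromosome 12 (34800000 to 37199999). These runs are called the dense stretches and were drawn after the counts were seen. They held 426 TGF-β1 and 62 control peaks on chromosome 7, and 326 TGF-β1 and 32 control peaks on chromosome 12. Beyond the dense stretch of chromosome 7 lay 22 TGF-β1 peaks in 3.3 Mb and 2 control peaks. On chromosome 12, 10 TGF-β1 peaks and 17 control peaks lay beyond it in 2.6 Mb.

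Inside the dense stretches, where each bin has at least 5 TGF-β1 peaks by definition, the counts scattered about as those of independent points do. A 100 kb bin held 9 to 23 TGF-β1 peaks on chromosome 7 (median 16, 27 bins) and 5 to 20 on chromosome 12 (median 14, 24 bins). The variance of these counts was 0.845 and 1.05 times their mean, where scatter of independent points gives about 1. Control peaks numbered 0 to 6 per bin on chromosome 7 (median 2) and 0 to 4 on chromosome 12 (median 1), with variances of 1.03 and 0.63 times the mean. The density of peaks in the dense stretch was 158 per Mb (TGF-β1) and 23.0 per Mb (control) on chromosome 7, and 136 and 13.3 per Mb on chromosome 12. Peaks covered 2.73% (TGF-β1) and 0.384% (control) of the dense stretch of chromosome 7, and 2.43% and 0.229% on chromosome 12.

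**Figure D1:**
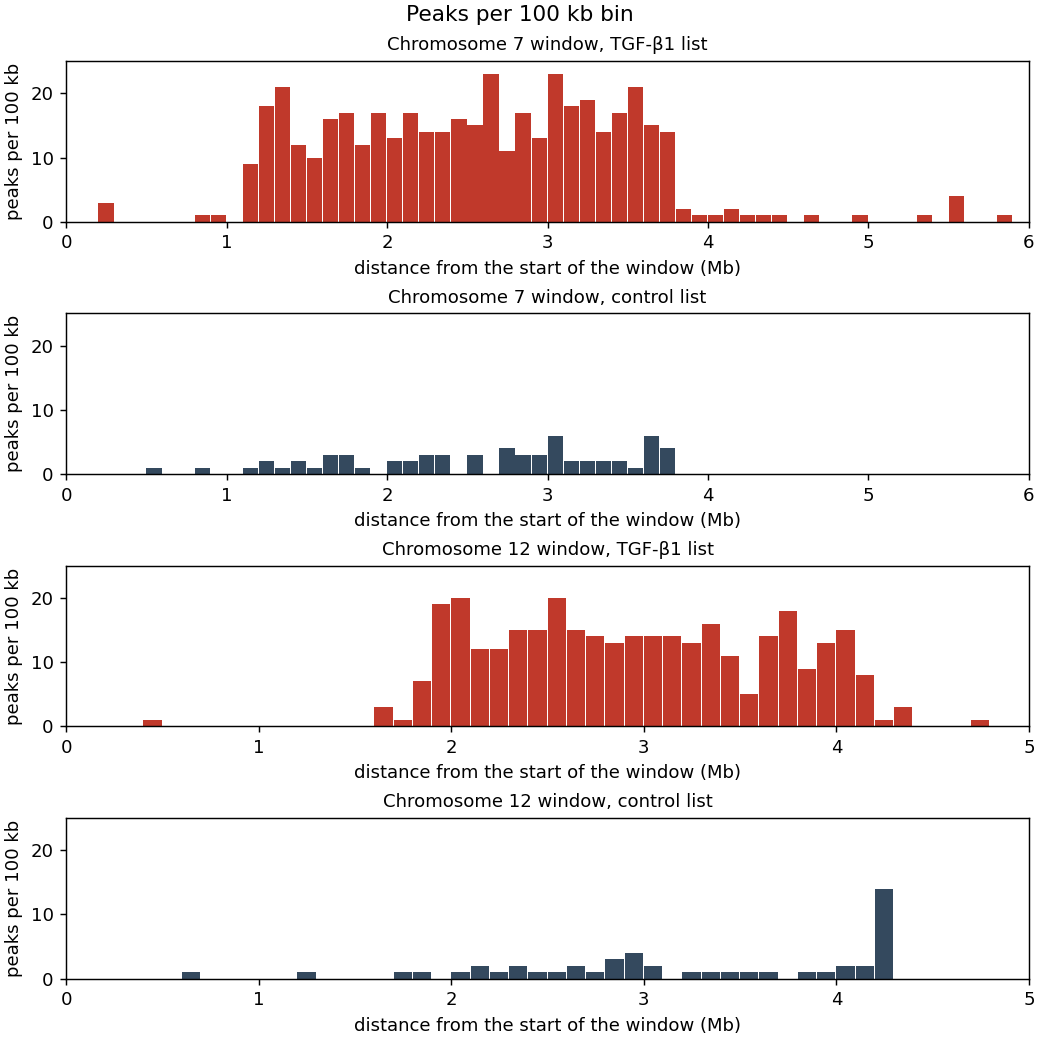
Peaks per 100 kb bin (vertical axis, the same in all panels) against distance from the start of the window in Mb, with the TGF-β1 list above the control list for chromosome 7 and then chromosome 12. TGF-β1 bars rise to 9 to 23 peaks per bin over 27 bins of chromosome 7, and the tallest control bar, 14 peaks, stands at the end of the dense stretch of chromosome 12.

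The windows held about 7 TGF-β1 peaks for each control peak, more than the lists at large. On chromosome 7 the ratio was 7.0 (448 to 64, interval 5.38 to 9.24) and on chromosome 12 it was 6.86 (336 to 49, 5.07 to 9.45). Over all peaks it was 3.01 (2.92 to 3.11), and over the rest of the same chromosomes 3.88 on chromosome 7 (636 to 164, 3.26 to 4.63) and 2.96 on chromosome 12 (504 to 170, 2.49 to 3.55). Elsewhere, 61 bins of 1 Mb held at least 20 peaks of the lists together and are called the other dense bins, and there it was 2.08 (3688 to 1776, 1.96 to 2.199). The windows took 2.80% and 2.101% of the TGF-β1 list and 1.21% and 0.923% of the control list, chromosome 7 first. The intervals of the windows lie above those of all peaks and of the other dense bins, and they cover counting error only.

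The excess held at a stricter limit, at which the lists are of nearly equal length. With a −log10 q of at least 10, 143 TGF-β1 and 40 control peaks were left on chromosome 7, a ratio of 3.58 (2.50 to 5.21). On chromosome 12, 48 TGF-β1 and 16 control peaks were left, a ratio of 3.0 (1.67 to 5.66). Over all peaks 1401 and 1388 were left, a ratio of 1.01 (0.936 to 1.09), and in the other dense bins 1097 and 1122, a ratio of 0.978 (0.899 to 1.06). This limit was reached on chromosome 7 by 31.9% of TGF-β1 peaks (27.8% to 36.4%) and 62.5% of control peaks (50.3% to 73.3%), against 8.76% and 26.2% of the whole lists. In the other dense bins it was reached by 29.7% (28.3% to 31.2%) of TGF-β1 and 63.2% (60.9% to 65.4%) of control peaks. The chromosome 7 shares were thus within counting error of those bins. For chromosome 12 the shares were 14.3% (10.9% to 18.4%) of TGF-β1 and 32.7% (21.2% to 46.6%) of control peaks. The control share there was within counting error of the whole list, and both shares lay below those of the other dense bins.

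Neighbouring summits stood closer together in the TGF-β1 list. More peaks in a window of fixed length leave shorter distances, so these medians restate the counts and are no separate result. On chromosome 7 the median distance between neighbouring summits was 4.68 kb for TGF-β1 peaks (quartiles 2.03 and 9.0 kb, 447 distances) and 32.8 kb for control peaks (11.5 and 62.0 kb, 63 distances). On chromosome 12 it was 5.26 kb (TGF-β1, 2.53 and 10.3 kb, 335 distances) and 36.4 kb (control, 3.79 and 108 kb, 48 distances). The shortest TGF-β1 distances were 243 bp on chromosome 7 and 303 bp on chromosome 12. Distances under 1 kb made up 10.5% of TGF-β1 distances (47) and 1.59% of control distances (1) on chromosome 7. On chromosome 12 they made up 8.66% of TGF-β1 distances (29) and 14.6% of control distances (7), and within the dense stretch 8.92% (29) and 3.23% (1).

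The spacing of TGF-β1 summits was about as variable as that of independent points. Within the dense stretches the standard deviation of the TGF-β1 distances was 1.04 times their mean on chromosome 7 and 0.953 times on chromosome 12, where evenly spaced points give 0 and independent points about 1. Every pair of TGF-β1 summits up to 20 kb apart was scored for how well its distance matched a whole multiple of a period. A pair has 1 for a perfect match and a negative value midway between multiples. The score of a period is the mean over all pairs, where 0 means no net match. For periods from 160 to 180 bp, which include the length of an alpha satellite unit, the highest score was 0.022 on chromosome 7 (1343 distances) and 0.033 on chromosome 12 (865 distances). The highest score of any period from 100 to 4000 bp was 0.053, at 193 bp on chromosome 7, and 0.09, at 450 bp on chromosome 12. For pairs up to 2 kb apart the highest score from 160 to 180 bp was 0.088 (117 distances) and 0.073 (69 distances), and that of any period was 0.172, at 137 bp on chromosome 7, and 0.23, at 453 bp on chromosome 12. None of these scores was set against a score for points without a period.

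**Figure D2:**
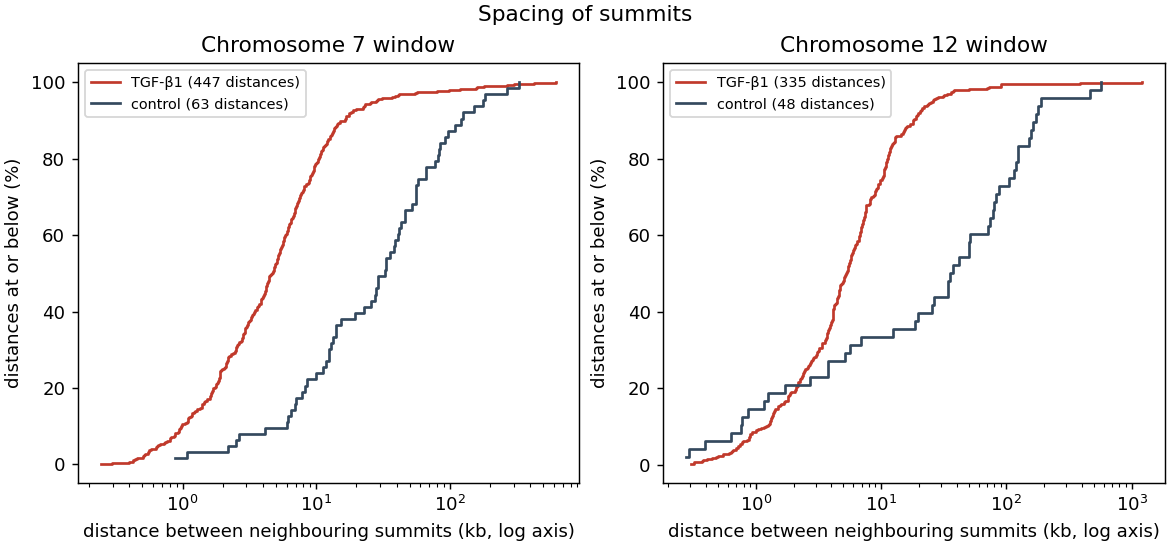
Share of distances between neighbouring summits (vertical axis, %) at or below a given distance (horizontal log axis, kb), 1 panel per window. The TGF-β1 curves lie to the left of the control curves, with medians of 4.68 against 32.8 kb on chromosome 7, and on chromosome 12 the control curve starts with 7 distances under 1 kb.

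Peak lengths stayed near the fragment length, which is the shortest length the caller allows. The median length was 158.5 bp (TGF-β1) and 160.5 bp (control) on chromosome 7, and 165.5 bp (TGF-β1) and 168 bp (control) on chromosome 12. Over the whole lists the medians were 159 bp and 177 bp. Above the fragment length, the medians exceeded it by 22.5 bp (TGF-β1) and 12.5 bp (control) on chromosome 7, and by 29.5 bp and 20 bp on chromosome 12, against 23 bp and 29 bp over the whole lists. The longest member was 403 bp (TGF-β1) and 294 bp (control) on chromosome 7, and 481 bp and 551 bp on chromosome 12. The peaks were exactly as long as a fragment in 7.37% of TGF-β1 and 14.1% of control members on chromosome 7, and in 7.44% and 12.2% on chromosome 12.

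High local background, over 5 times the genome-wide value of the list, was less common among the members than in other dense bins. On chromosome 7, 41.1% of TGF-β1 peaks (36.6% to 45.7%) and 78.1% of control peaks (66.6% to 86.5%) lay over it. On chromosome 12 it was 25.9% of TGF-β1 peaks (21.5% to 30.8%) and 57.1% of control peaks (43.3% to 70.0%). The shares over the whole lists were 17.4% and 40.6%, and those in the other dense bins 61.0% (59.5% to 62.6%) and 94.1% (92.9% to 95.1%). Split by background, the TGF-β1 to control ratio over high background was 3.68 (2.68 to 5.14) on chromosome 7 and 3.11 (2.01 to 4.94) on chromosome 12, against 1.35 (1.26 to 1.44) in the other dense bins. Over low background it was 18.9 (11.0 to 35.0) and 11.9 (7.59 to 19.5), against 13.7 (11.2 to 16.8) in the other dense bins, so there the windows did not stand apart beyond counting error. Most local backgrounds equalled, to within 0.001 tags, a whole number of scaled input tags at the summit itself, in 75.4% of TGF-β1 and 95.3% of control members on chromosome 7 and in 69.3% and 87.8% on chromosome 12.

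Median pileup was lower in the TGF-β1 list, which held many weaker peaks besides the strong ones. On chromosome 7 TGF-β1 peaks had pileups of 13 to 236 tags (median 36, quartiles 27 and 51.2) and control peaks 19 to 236 (median 70.5, quartiles 39.5 and 126). On chromosome 12 the TGF-β1 range was 11 to 171 (median 29, quartiles 24 and 39.2) and the control range 19 to 295 (median 42, quartiles 29 and 181). The medians over the whole lists were 19 (TGF-β1) and 23 (control). In the other dense bins they were 52 (TGF-β1) and 158 (control), higher than in either window and again lower in the TGF-β1 list. On chromosome 12 the ratio of medians rested in part on a group of 14 control peaks beside the dense stretch, described further on. It was 0.690 in the window and 0.819 (0.667 to 1.19) in the dense stretch, an interval that includes 1. Over low background the median pileups were 29 (TGF-β1, 264 peaks) and 27 (control, 14 peaks) on chromosome 7, and 27 (TGF-β1, 249 peaks) and 26 (control, 21 peaks) on chromosome 12. Over high background they were 56.5 (184 peaks) and 90.5 (50 peaks) on chromosome 7, and 50 (87 peaks) and 162.5 (28 peaks) on chromosome 12. Of those 28 control peaks 14 were the group, and in the dense stretch of chromosome 12 the medians over high background were 50 (TGF-β1, 85 peaks) and 53 (control, 13 peaks).

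Fold enrichment was spread over a similar range in both windows, with the highest folds in the longer TGF-β1 list. A maximum depends on the number of peaks, and the upper quartiles lay closer together. They were 4.06 (TGF-β1) and 3.59 (control) on chromosome 7, and 3.81 and 3.45 on chromosome 12. The median fold was 3.48 (TGF-β1, range 1.93 to 8.25) and 3.14 (control, 2.17 to 4.74) on chromosome 7, and 3.30 (TGF-β1, 1.75 to 6.23) and 2.67 (control, 1.70 to 4.68) on chromosome 12. The whole lists had medians of 3.46 and 2.97. Ranked by fold over the genome, 8 of the first 100 TGF-β1 peaks lay in the chromosome 7 window and 1 in that of chromosome 12, and none of the first 100 control peaks did. By −log10 q, 17 of the first 100 TGF-β1 peaks and 13 of the first 100 control peaks lay in the chromosome 7 window, which held 2.80% and 1.21% of the lists, and none lay in the chromosome 12 window.

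**Figure D3:**
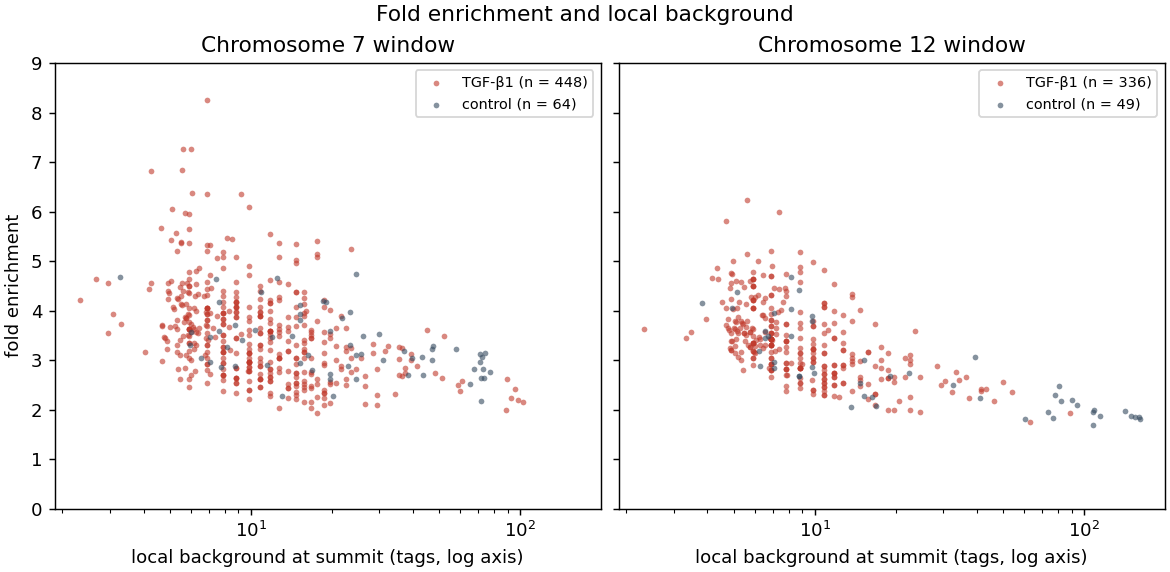
Fold enrichment (vertical axis) against local background at the summit (horizontal log axis, tags), 1 point per peak, with TGF-β1 and control peaks in different colours and 1 panel per window. The highest folds, up to 8.25 on chromosome 7 and 6.23 on chromosome 12, belong to TGF-β1 peaks at low background, and the points of highest background on chromosome 12 are control peaks with folds near 2.

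Overlap between the lists differed between the chromosomes. On chromosome 7, 62.5% of control peaks (40 of 64, 50.3% to 73.3%) had a TGF-β1 peak over them, against 14.4% of all control peaks and 33.7% (31.5% to 35.9%) in the other dense bins. On chromosome 12 it was 11 of 49, or 22.4% (13.0% to 35.9%), and in its dense stretch 11 of 32, or 34.4% (20.4% to 51.7%), against 64.5% (52.1% to 75.3%) in that of chromosome 7. A control peak lay over 8.93% of TGF-β1 peaks (40 of 448, 6.63% to 11.9%) on chromosome 7 and 3.27% (11 of 336, 1.84% to 5.77%) on chromosome 12. Over the whole list it was 4.81%, and in the other dense bins 16.3% (15.2% to 17.6%). All 51 overlapping pairs lay in the dense stretches. The intervals of the chromosomes do not overlap, in either list. Over high local background 70.0% (35 of 50, 56.2% to 80.9%) of control peaks on chromosome 7 and 21.4% (6 of 28, 10.2% to 39.5%) on chromosome 12 had a partner. The 14 control peaks beside the dense stretch of chromosome 12 had none. Without them, in the dense stretch, 6 of 13 or 46.2% (23.2% to 70.9%) had a partner there, an interval that overlaps that of chromosome 7. Over low background the numbers were 5 of 14 and 5 of 21, a difference within counting error.

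Overlapping TGF-β1 peaks on chromosome 7 were mostly tall, though many tall peaks had no overlap. Their pileups were 25 to 236 (median 82.5), against 13 to 166 (median 35) for the 408 TGF-β1 peaks without overlap. Overlapping peaks were also tall elsewhere in the genome. The 719 pairs there had a median TGF-β1 pileup of 112, against 19 over the rest of the TGF-β1 list. The chromosome 7 peaks were divided into 4 classes of 112 peaks by pileup. The tallest class (52 to 236 tags) had 32 peaks with overlap, or 28.6% (21.0% to 37.5%). The other classes had 1, 5 and 2, from the lowest pileup up. For chromosome 12 the corresponding counts were 2, 2, 3 and 4 of 84, and the median pileup was 34 (overlapping) and 29 (not overlapping), so that no such step was seen there. Control peaks showed the same order on chromosome 7, with a median pileup of 81.5 (overlapping, 40 peaks) and 50 (not overlapping, 24 peaks), and the reverse in the window of chromosome 12, with 39 (11 peaks) and 47.5 (38 peaks). In the dense stretch of chromosome 12, which leaves out the group of 14, the order was that of chromosome 7, with 39 (overlapping, 11 peaks) and 31 (not overlapping, 21 peaks).

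**Figure D4:**
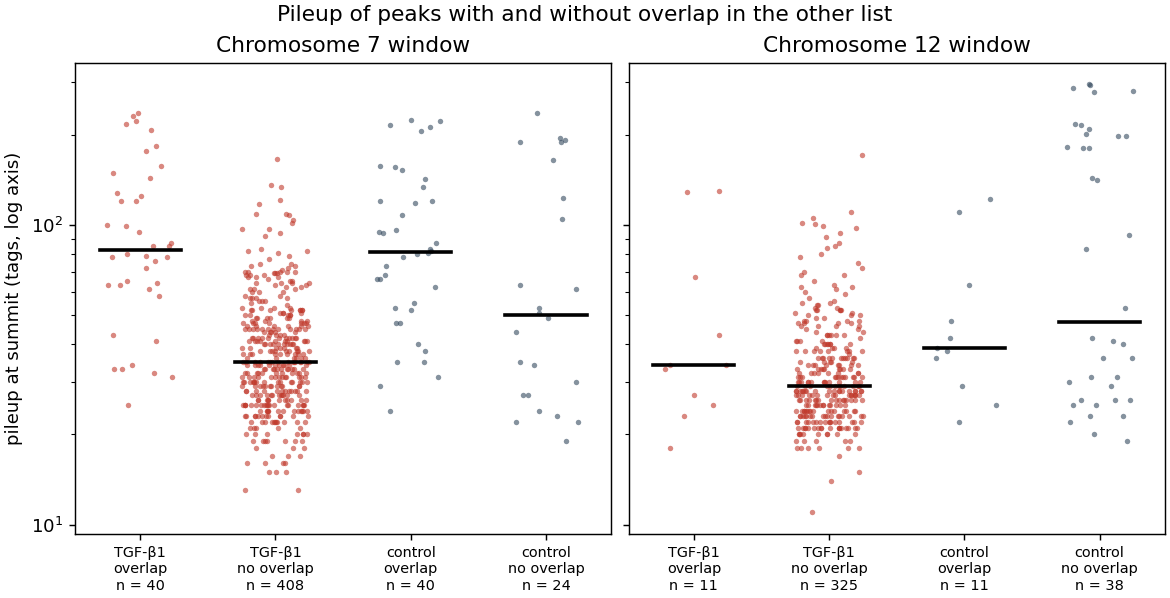
Pileup at the summit (vertical log axis, tags) of each peak, grouped by list and by overlap with the other list, 1 panel per window, with bars at the medians. On chromosome 7 the median is 82.5 for overlapping and 35 for other TGF-β1 peaks, and on chromosome 12 a group of control peaks of 141 to 295 tags has no overlap.

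Over the whole windows, the control peaks without overlap lay closer to TGF-β1 summits on chromosome 7 than on chromosome 12. On chromosome 7, 2 of 24 had a TGF-β1 summit within 1 kb, 18 within 1 to 10 kb and 4 farther away (median 3.67 kb). On chromosome 12 the numbers were 0, 16 and 22 of 38 (median 10.9 kb). In the dense stretches alone the medians were 3.41 kb (22 peaks) and 4.16 kb (21 peaks), and 2 and 7 were over 10 kb away. Seen from the TGF-β1 list, the nearest control summit was 17.4 kb away on chromosome 7 and 27.8 kb away on chromosome 12 in the median. Such distances depend on density, which in the dense stretches of chromosomes 7 and 12 was 158 and 136 per Mb (TGF-β1) and 23.0 and 13.3 per Mb (control).

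Where the lists overlapped, they met at nearly the same base. The summits of the 40 pairs of chromosome 7 were a median of 7 bp apart (quartiles 2.75 and 15 bp, at most 265 bp), and 28 of them were within 10 bp. The 11 pairs of chromosome 12 were a median of 14 bp apart (quartiles 8 and 22 bp, at most 89 bp), with 5 within 10 bp. The 719 pairs elsewhere in the genome had a median of 11 bp (quartiles 5 and 27 bp).

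The pairs also had nearly equal pileups. The TGF-β1 pileup was 0.816 to 1.38 times that of the control on chromosome 7 (median 1.04), higher in 29 and lower in 10 of 40 pairs. On chromosome 12 it was 0.694 to 1.16 times (median 0.896), higher in 4 and lower in 7 of 11 pairs. Divided by the genome-wide background of each list, which takes up depth and fragment length, the medians were 0.891 and 0.769, below 1 in 35 of 40 and 11 of 11 pairs. The pairs elsewhere had a scaled median of 0.90, below 1 in 635 of 719. Across pairs, log2 pileups of the lists had a Pearson r of 0.986 on chromosome 7 (40 pairs) and 0.979 on chromosome 12 (11 pairs), and of 0.986 elsewhere. The points are sites of the same 2 libraries and share depth and mappability, so these values only describe the likeness.

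The folds of the pairs scattered to both sides of equality. The ratio of TGF-β1 to control fold ran from 0.702 to 1.77 on chromosome 7 (median 0.985) and from 0.839 to 1.30 on chromosome 12 (median 1.11). The r of log2 folds was 0.752 and 0.809, over a narrower range of values than that of the pileups. The local background of the pairs ran from 0.548 to 1.50 times that of the control on chromosome 7 (median 1.05) and from 0.591 to 1.28 times on chromosome 12 (median 0.841).

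**Figure D5:**
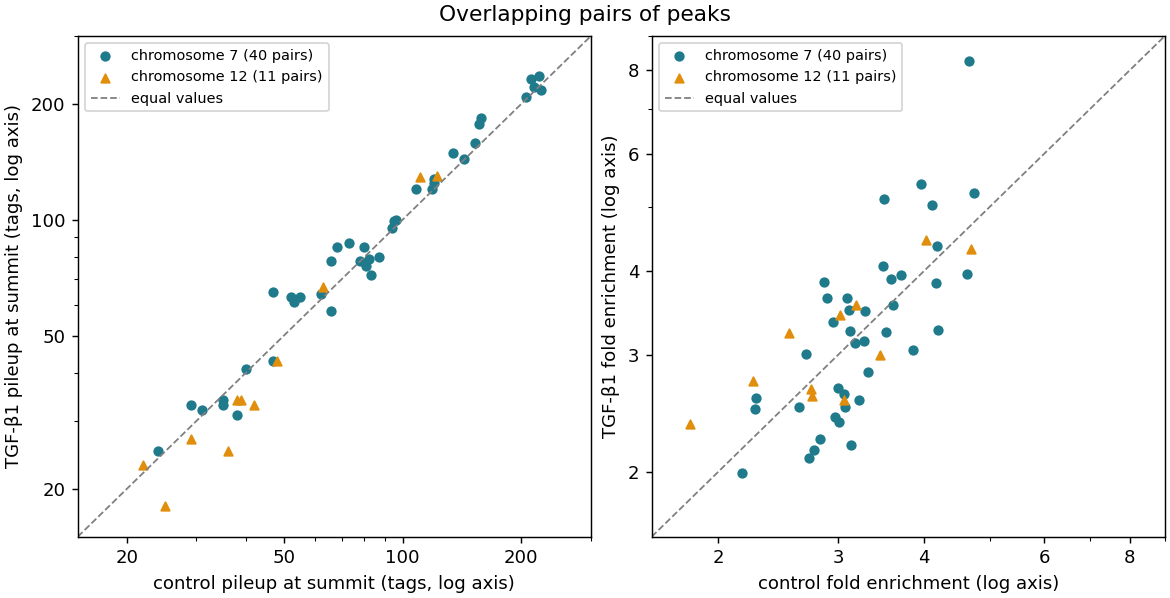
TGF-β1 against control values of the 40 overlapping pairs of chromosome 7 and the 11 of chromosome 12, as pileup (left, tags, log axes) and fold enrichment (right, log axes), with a dashed line at equal values. Pileups lie close to the line over the whole range and folds scatter around it, with 1 pair at a TGF-β1 fold of 8.25 and a control fold of 4.65.

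The TGF-β1 peak of smallest q in the genome lay on chromosome 7. It ran from 58785005 to 58785177, reached a −log10 q of 42.8 at a pileup of 128 and a fold of 5.25, and was singled out after its values were seen. Its control partner (58785012 to 58785184, pileup 120, fold 4.74, −log10 q 36.5) had the highest fold of the control peaks in that window and ranked 18 by q among 5307. A second pair lay under 1 kb away, with pileups of 95 (TGF-β1) and 94 (control) and folds of 5.14 and 3.50.

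The highest fold of any member was at chr7:60656380-60656585, with 8.25 at a pileup of 64, rank 4 by fold among 15993 TGF-β1 peaks. Its control partner (60656369 to 60656540) reached 4.65 at a pileup of 62. The pileups were nearly equal, and the local background was 6.88 tags with TGF-β1 and 12.5 in the control. The next TGF-β1 folds on chromosome 7 were 7.27 (58398175 to 58398320, pileup 50) and 7.26 (58283140 to 58283360, pileup 47), both without a control partner. The control peak of second highest fold on chromosome 7 (57599083 to 57599237, fold 4.68, pileup 19) lay outside the dense stretch. The control peak of highest pileup there (58275781 to 58275961, pileup 236, fold 3.15) had no TGF-β1 partner, although its −log10 q of 42.9 ranked 7 in the control list.

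The highest TGF-β1 folds of chromosome 12 were 6.23 (35327313 to 35327493, pileup 40), 5.99 (35041652 to 35041842, pileup 49) and 5.81 (36523362 to 36523498, pileup 32). None of the 3 overlapped a control peak. The highest control folds were 4.68 (35361810 to 35361967, pileup 42), 4.42 (35600830 to 35601011, pileup 42) and 4.38 (36025569 to 36025738, pileup 26), of which the first had a TGF-β1 partner with a pileup of 33 and a fold of 4.32.

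The tallest pairs of chromosome 7 stood over high input. The pair at 60019479 to 60019617 (TGF-β1) had pileups of 236 and 222 tags (TGF-β1, control), folds of 2.62 and 3.06 and summits at the same base, 60019551. The pair at 59111403 to 59111544 had pileups of 232 and 212 and folds of 2.42 and 2.96, and that at 59217352 to 59217495 had 222 and 216 and folds of 2.16 and 2.77. Their local backgrounds in the TGF-β1 list were 89.4, 95.3 and 102 tags, 38.6 to 44.1 times the genome-wide value. On chromosome 12 the tallest pairs were at 35998924 to 35999064, with pileups of 130 and 122 and folds of 2.56 and 3.06, and at 35596976 to 35597264, with 129 and 111 and folds of 2.36 and 1.82. The third had pileups of 67 and 63 and folds of 2.66 and 2.74.

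A group of control peaks set the chromosome 12 window apart from that of chromosome 7. The 100 kb just beyond its dense stretch held 1 TGF-β1 peak (37265384 to 37265527) and 14 control peaks. The TGF-β1 peak had a pileup of 171 and a fold of 1.92, and was the tallest TGF-β1 peak of the window. The control peaks lay in 28.5 kb (37235353 to 37263829), a median of 1.16 kb apart, and none overlapped the TGF-β1 peak. Their pileups were 141 to 295 (median 213), their folds 1.70 to 2.48 (median 1.91) and their lengths 149 to 551 bp. Over the 1776 control peaks of the other dense bins the median pileup was 158 (quartiles 97 and 238) and the median fold 2.04. All 14 lay over high local background, as did 94.1% of those 1776, so such control peaks were also found elsewhere.

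Several of the 14 control peaks were near the limits of the counting. With 1 tag kept per position and strand, at most 272 tags can cover a base in the TGF-β1 library and 296 in the control library. The 3 tallest of the group had 295, 293 and 288 tags, and their local backgrounds of 154 to 161 tags stood near the limit of 161 that the scaled control input can reach. A site at both limits has a fold of 1.02 in the TGF-β1 list and of 1.83 in that of the control, because the TGF-β1 input is scaled by 0.983 and the control input by 0.545. Of the 14 peaks, 5 (35.7%) had at least 80% of the largest possible pileup. They were the only ones among the 49 control peaks of the window (10.2%). Over the whole control list 545 of 5307 peaks (10.3%) reached that share of the limit. On chromosome 7, 3 of 448 TGF-β1 peaks did (0.67%, highest 86.8%), against 17 of all 15993 (0.106%). No control peak did there (highest 79.7%), and local backgrounds reached at most 38.2% (TGF-β1) and 48.0% (control) of their limits. The part of these limits in the difference between the lists was not tested.

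The dense stretch of chromosome 12 leaves out 17 control peaks, the 14 of the group among them, and 10 TGF-β1 peaks. The ratio of TGF-β1 to control peaks there was 10.2 (7.07 to 15.1), against 6.86 in the window. The median control pileup was 36 and the control median spacing 70.7 kb, against 42 and 36.4 kb in the window. High local background was found for 40.6% of the 32 control peaks of that stretch. On the dense stretch of chromosome 7 the control median pileup was 75.5 and the median spacing 29.2 kb, and 64.5% of control peaks overlapped a TGF-β1 peak, against 34.4% on chromosome 12.

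At the window edges peaks were sparse and mostly of low pileup, though not of low fold (each summit is given with its pileup and fold). On chromosome 7 the first TGF-β1 summit inside was at 57225357 (pileup 13, fold 3.55) and the last outside before it at 56568995 (pileup 18, fold 4.81), and at the upper edge they were at 62817827 (13, 4.22) inside and 63117060 (14, 3.68) outside. The control summits inside were at 57599144 (19, 4.68) and 60797279 (30, 3.59), and those outside at 56578196 (18, 2.72) and 63139615 (20, 3.55). On chromosome 12 the TGF-β1 summits inside were at 33404499 (18, 3.21) and 37728285 (23, 3.56), and those outside at 32979004 (17, 3.65) and 38046318 (15, 4.70). The control summits inside were at 33675608 (19, 4.15) and 37263730 (198, 2.19), and those outside at 32531172 (14, 4.03) and 38100741 (20, 3.0). Apart from the last summit of the group of 14, none of these had a pileup above 30.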

How the data were processed

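Chromatin immunoprecipitation sequencing gave 1 peak list for cells treated with TGF-β1 and 1 for control cells. Per the submitters' processing notes, reads were aligned with Bowtie2 to hg38 and peaks called with MACS2 2.1.0, whereas the file headers name MACS 2.2.7.1. Per the file headers, each ChIP library was called against the input of the same cells, peaks were kept up to a q-value of 0.05, 1 tag per position was used, and the larger library was scaled down to the smaller. The deposited pileup is a signal, the number of extended ChIP tags over the summit. The deposited fold enrichment divides pileup by local background, each raised by 1, and is a linear ratio. Each peak's −log10 p-value and −log10 q-value were deposited as the caller gave them. All are the authors' own values for each peak, and they were used to describe and filter peaks within a list. Filters on mapping quality or problem regions are not stated in those sources.

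Members were all rows whose summit lay from 57 to 63 Mb on chromosome 7 or from 33 to 38 Mb on chromosome 12. Local background was recomputed from pileup and fold. Poisson −log10 p-values computed with it lay within 0.000210 of those deposited. High local background means over 5 times the genome-wide value of the list. Overlap was counted from 1 bp. A 1 Mb bin of an assembled chromosome was called dense when the lists together had 20 or more peaks there (68 bins, 7 of them in the windows). Shares have Wilson 95% intervals and ratios of counts exact 95% intervals, which cover counting error only. Medians have 95% intervals taken from the ordered values, and the range of a ratio of medians divides opposite ends of these. With 1 library per group no test between conditions was made. Genes came from a RefSeq table of GRCh38.p14 (59792 entries). The peaks named are, per window and list, the 3 of highest fold and the 3 of highest pileup, the 3 overlapping pairs of highest TGF-β1 pileup per window, and those next to the window edges. The members, lists and rules were chosen with earlier results of these data known. Functions were tested on simulated positions. Python 3.11.15, pandas 2.3.3, scipy 1.17.1 and matplotlib 3.10.9 were used. Alternatives were a stricter q limit, lists of equal length, repeated rows, shorter windows, low local background only, other overlap rules, scaled pileup, another limit for high background and the dense stretch alone.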

Additional observations from a re-analysis of the deposited data

How the results depend on the processing

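No paired analysis was possible because each group is 1 library and no test was made. The 24 comparisons were of number, overlap, pileup, fold, length, spacing and high background, per window and list. Their values were set against the interval of the value reported, or against the range for a ratio of medians. No value changed when repeated rows were counted once, since the lists hold none. The 4 overlap shares stayed within their intervals with 50% overlap or with summits up to 1000 bp apart, and both pileup ratios did after scaling to the genome-wide background. In what follows chromosome 7 comes before chromosome 12, and the causes were not tested.

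The ratio of TGF-β1 to control peaks stayed above 1 in every alternative, but the whole lists already had a ratio of 3.01. For peaks of −log10 q 10 or more the window ratio was 3.58 and 3.0, against 1.01 over all peaks. It was 2.34 and 1.63 when the TGF-β1 list was shortened to the length of the control list by fold. Over low local background it was 18.9 and 11.9, against 4.18 over all peaks and 13.7 in the other dense bins. On chromosome 12 it was 10.2 in shorter windows and 10.2 in the dense stretch, an alternative chosen after seeing the data. The ratio of median pileups over low background was 1.07 (range 0.8 to 1.36) and 1.04 (0.839 to 1.22), from 14 and 21 control peaks. Both ranges include 1, whereas those of the values reported lie below 1. On chromosome 12 the ratio was 0.690 as reported, 0.257 at −log10 q 10 or more and 0.819 in the dense stretch (range 0.667 to 1.19).

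At −log10 q 10 or more, TGF-β1 overlap on chromosome 7 was 19.6% and control overlap on chromosome 12 was 6.25%. TGF-β1 median folds were 4.07 and 4.11, and the control one on chromosome 12 was 2.05. TGF-β1 spacing was 12918.5 and 40851 bp, and control spacing on chromosome 12 was 1716 bp, with a control length of 194 bp there. High background was then found for 63.6% and 52.1% of TGF-β1 and 97.5% and 87.5% of control peaks.

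With lists of equal length, control overlap was 15.6% and 4.08%. TGF-β1 median folds were 4.37 and 4.42, spacing 13118 and 20430 bp, and length on chromosome 7 164.5 bp, with 22% and 7.5% of peaks over high background.

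Over low background, overlap on chromosome 7 was 1.89% (TGF-β1) and 35.7% (control). Median folds were 3.72 and 3.48 (TGF-β1) and 3.43 and 3.49 (control). Spacing was 7984 and 7221.5 bp (TGF-β1) and 151483 and 94066 bp (control), and control length on chromosome 7 was 152.5 bp.

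A limit of 10 times the genome-wide value for high background gave 8.93% and 5.65% (TGF-β1) and 50% and 42.9% (control). On chromosome 12, shorter windows gave a control fold of 2.93 and 40% of control peaks over high background, and the dense stretch gave 40.6%.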
